A study of Homo sapiens with 9 samples.

Results

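NKX2-1 binding was compared between NCI-H1819 and NCI-H2087, a pair of lung adenocarcinoma cell lines, using 1 deposited peak list per line. The lists held 13486 peaks in H1819 and 14441 in H2087, together 27927 of the 125904 peaks in all 5 lists of the series. A peak counted as shared where it overlapped a peak of the other line by 1 bp or more, and otherwise as specific to its line. The series mapped NKX2-1 by chromatin immunoprecipitation and sequencing (ChIP-seq) in 3 lung adenocarcinoma lines that carry extra copies of the NKX2-1 gene per the labels, and FOXA1 in 1 of them, NCI-H3122. Both lines compared here were grown in RPMI1640 with FBS, received no treatment that the labels record, and were fixed with formaldehyde, sheared by sonication and precipitated with the same NKX2-1 antibody (Bethyl Laboratories, BL4000). The 4 input libraries were not analysed here. Each line stands for 1 tumour and has 1 library, so a difference between the lists cannot be told apart from a difference between libraries. Read depth is unknown and copy number was not measured, so the number of peaks is no measure of the amount of binding. All intervals are 95% intervals for counting error alone, because the peaks of a list do not replicate each other.

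The homeobox gene NKX2-1 encodes TTF-1, a DNA-binding factor that specifies lung and thyroid and in the adult lung keeps up the program of alveolar type II and club cells, including the surfactant proteins. In lung adenocarcinoma it marks tumours with this lineage, and its gene is amplified in a subset of them. FOXA1 is a forkhead pioneer factor that can bind nucleosomal DNA and often occupies enhancers together with lineage factors. A peak in such a list is a stretch of the genome where precipitated reads pile up above background, and it names a place, not a target gene.

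Most peaks of each list overlapped no peak of the other list. Of the 13483 H1819 peaks on assembled chromosomes, 3079 were shared, which is 22.8% (Wilson interval 22.1 to 23.6). Of the 14437 H2087 peaks, 3025 were shared, which is 21.0% (20.3 to 21.6). Merging the lists gave 24795 regions, of which 2979 (12.01%) held peaks of both lines, 10404 held H1819 peaks alone and 11412 held H2087 peaks alone. Where the lines did share a place, they placed it closely. Across the 3125 overlapping pairs the median overlap was 437 bp and the peak midpoints lay a median of 84 bp apart. In 56.9% of pairs the midpoints were within 100 bp, and 0.992% of pairs overlapped by less than 50 bp. The H2087 peak was the wider one in 79.6% of pairs, with a median width ratio of 1.46.

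Shared peaks were larger than specific ones in H2087, and hardly so in H1819. In H2087 the median width was 734 bp (quartiles 511 to 1020) for shared peaks and 557 bp (392 to 819) for specific ones. In H1819 it was 488 bp (387 to 633) and 477 bp (367 to 621). Each peak also carries the authors' score, whose scale no source used here states. It was used only to rank peaks within a list, and it saturated near 3100, reached by 16 peaks in H1819 and 73 in H2087. The median score of shared H2087 peaks was 236, against 133.9 for specific ones, while H1819 had 124.8 and 124.1. Ranked by score and cut into 10 equal groups (deciles), H2087 peaks were shared in 9.76% of the lowest decile and, with a rise at each step, in 34.2% of the highest. H1819 peaks showed no such slope: the share lay between 19.7% and 25.9% in all deciles, and 21.4% of the highest decile were shared. Width gave the same contrast. In H2087 the share went from 11.2% in the lowest width quartile through 17.04% and 23.97% to 31.6% in the highest, and in H1819 the quartiles had 19.6%, 24.3%, 23.3% and 24.1%. A wide peak overlaps another more easily, and the part of width in the H2087 slope was not tested.

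**Figure D1:**
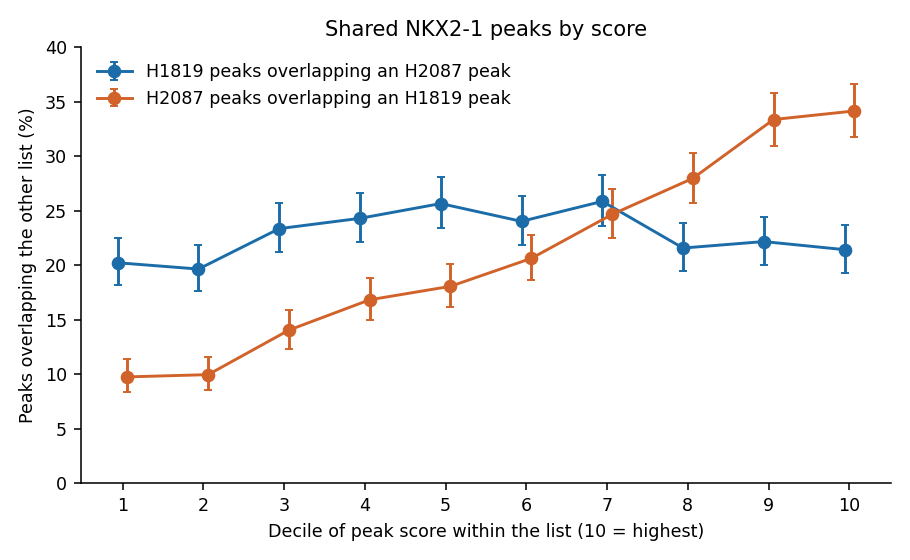
Share of peaks overlapping the other line's list (%, y axis) in deciles of peak score within each list (x axis, 10 the highest), for H1819 and H2087, with Wilson 95% intervals. The H2087 share climbs from 9.76% to 34.2%, while H1819 stays between 19.7% and 25.9%.

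Rank in one line was only weakly related to rank in the other. Over the 3125 pairs Spearman's rho was 0.292 for scores and 0.271 for widths, as a description over pairs that come from the same 2 libraries. Of these pairs 296 were in the top score decile of H1819 and 538 in that of H2087, and 121 were in both. Top-decile H1819 pairs were thus in the H2087 top decile more often (121 of 296) than all pairs were (538 of 3125). By the deciles above, the strongest H1819 peaks were found in H2087 about as often as the weakest H1819 peaks, and 78.6% of the H1819 top decile was specific. In H2087 65.8% of the top decile was specific.

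Specific peaks often lay far from any peak of the other line. The median distance between midpoints to the nearest one was 75.7 kb for H1819-specific peaks and 50.9 kb for H2087-specific peaks. Near misses were few: a gap of up to 1 kb between peak edges separated 302 H1819-specific peaks (2.90%) and 512 H2087-specific peaks (4.49%) from a peak of the other line. At the far end, by midpoints, the lines differed. In H1819 706 specific peaks (6.79%) were more than 1 Mb from any H2087 peak, whereas 62 H2087-specific peaks (0.543%) were that far from any H1819 peak.

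The other line, H3122, gave a readout that the classes did not use. It has a short and a long NKX2-1 list, called list 1 and list 2 here, and a FOXA1 list. Taking a peak in either H3122 NKX2-1 list, most peaks shared by H1819 and H2087 were occupied in H3122 as well: an H3122 NKX2-1 peak lay at 90.7% (89.7 to 91.7) of those in H1819 and at 91.4% (90.3 to 92.3) of those in H2087. Among specific peaks, 42.6% (41.7 to 43.6) overlapped one in H1819 and 62.0% (61.1 to 62.8) in H2087. The H1819-specific and H2087-specific intervals did not overlap. These shares rest on list 2: with list 1 alone they were 30.4% of shared and 9.02% of specific peaks in H1819, and 31.3% and 10.8% in H2087. Seen as merged regions, 57.4% of those of H1819 alone had no NKX2-1 peak in H3122, against 38.0% of those of H2087 alone and 8.63% of those with both lines. Regions of H2087 alone were also wider, with a median of 557 bp against 477 bp for H1819 alone, and the part of width in this difference was not tested.

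The gap between the lines was wide among the highest-scoring peaks. In the top decile of H1819 scores, 478 of 1060 specific peaks had no H3122 NKX2-1 peak, which is 45.1% (42.1 to 48.1). In the top decile of H2087 it was 166 of 950, or 17.5% (15.2 to 20.02). The shared peaks of the top deciles lacked one in 5.88% and 4.05% of cases. Among specific peaks the share with a peak in H3122 list 2 rose with score from 36.2% to 54.9% in H1819 and from 44.4% to 82.4% in H2087. The median width of specific top-decile peaks was 818 bp in H1819 and 1330 bp in H2087, and the part of this difference in the overlap was not tested.

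As shares of the H3122 lists the same overlaps were small. Of the 48061 assembled peaks of H3122 list 2, 5.77% overlapped peaks of both lines, 8.92% H1819 alone, 14.2% H2087 alone, and 71.1% neither. In its top score decile 16.5% overlapped both, 18.3% H1819 alone, 19.7% H2087 alone and 45.4% neither. The short list 1, with 7469 peaks, gave 12.7%, 12.7%, 17.2% and 57.4% in that order.

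**Figure D2:**
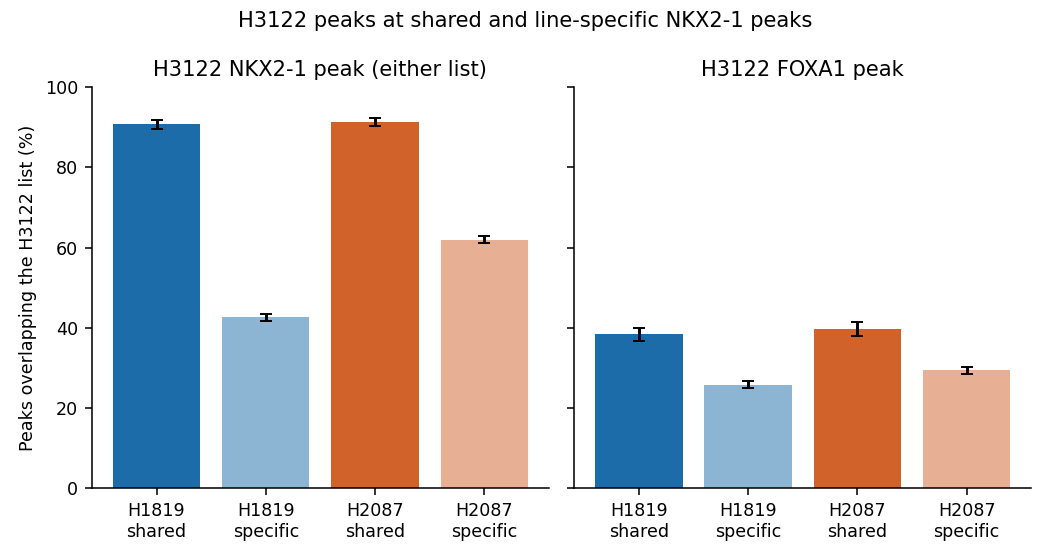
Share of shared and line-specific NKX2-1 peaks (%, y axis) that overlapped an H3122 NKX2-1 peak of either list (left) or an H3122 FOXA1 peak (right), with Wilson 95% intervals. Shared peaks stand at 90.7% and 91.4% for NKX2-1, and the specific peaks of H1819 at 42.6% fall below those of H2087 at 62.0%.

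FOXA1 was mapped in H3122 alone, so its peaks tell where that factor sat in H3122 and not in H1819 or H2087. A FOXA1 peak lay at 38.4% (36.7 to 40.1) of shared and 25.9% (25.04 to 26.7) of specific H1819 peaks. In H2087 it lay at 39.8% (38.1 to 41.6) and 29.4% (28.6 to 30.3). FOXA1 peaks were scarce where H3122 had no NKX2-1 peak. At peaks without an H3122 NKX2-1 peak, FOXA1 was at 8.07% of shared and 6.08% of specific H1819 peaks, and at 7.28% and 8.31% in H2087.

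Among peaks that list 2 of H3122 also held, the order turned round in H1819. FOXA1 was at 52.7% of specific and 41.6% of shared H1819 peaks, a difference of 11.1 percentage points (8.73 to 13.4). For H2087 it was at 42.7% and 43.1%, a difference of -0.388 points (-2.57 to 1.79). The H3122 peaks under shared places scored higher, with a median of 318 against 222 in H1819 and 317 against 188 in H2087, and FOXA1 was more frequent at high scores. Within quartiles of that H3122 score, a comparison chosen after the data were seen, FOXA1 was more frequent at specific than at shared peaks in all 4 quartiles of both lines. The mean difference over quartiles was 17.1 points in H1819 and 9.15 points in H2087. In the third quartile of H1819, for example, FOXA1 lay at 632 of 993 specific peaks and at 315 of 806 shared ones. Within these quartiles, specific peaks of H1819 and of H2087 thus met a FOXA1 peak more often than shared peaks did. For H2087 this held only after the split by quartile. The quartiles are broad, the highest of H1819 running from 518 to 3210. No test over replicates is possible with 1 library per line.

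The 5 shared regions with the highest mean rank of score in both lists were at 5q31.3, 12q21.33, 15q26.1, 2p16.1 and 9q22.32, in build hg18. At chr15:91147584-91148972 both peaks scored 3100, with widths of 1270 bp in H1819 and 1389 bp in H2087 and midpoints 49 bp apart. At chr12:90997927-90999487 both also scored 3100, with widths of 1144 and 1541 bp. The region at chr2:55919170-55920814 scored 2694 in H1819 and 2865 in H2087, and its midpoints were 3 bp apart. At 5q31.3 (chr5:140363313-140364959) the H1819 peak was 970 bp wide and lay wholly inside the H2087 peak of 1647 bp. At 9q22.32 the scores were 2849 and 2773. All 5 regions had a peak in both H3122 NKX2-1 lists and in the FOXA1 list, so they were bound in every list of the series.

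In H1819 the 5 specific peaks with the highest scores lay at 3q13.12, 7q31.31, 7q31.1, 9p23 and 13q22.1, and 4 of them had a peak in H3122 list 2 and 1 in both H3122 NKX2-1 lists. That one, chr3:109484269-109485227, scored 3201 and was 150 kb by midpoints, as in all distances that follow, from the nearest H2087 peak. The peak at chr7:111789048-111790759 was 1712 bp wide, scored 3100, and had no NKX2-1 or FOXA1 peak in H3122. The peak at chr13:72568247-72569771 had both in H3122 and lay 993 kb from the nearest H2087 peak. Among the 10 highest, a peak at 13q31.3 scored 3100 and lay 5126 kb from any H2087 peak.

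In H2087 the 5 strongest specific peaks lay at 7p14.3, 20p12.1, 3p14.3, 3q25.32 and 11q13.1, where all 5 had a peak in H3122 list 2 and 2 had one in both H3122 NKX2-1 lists. The peak at chr7:34024994-34026763 scored 3208 and was present in all 3 H3122 lists. The peak at chr20:17469851-17471494 scored 3152, was also in all 3 and lay 387 kb from the nearest H1819 peak. At chr3:158328027-158330016 the midpoint of the nearest H1819 peak was 2.01 kb away. The peak at chr11:65026439-65032156 was 5718 bp wide, the widest of the list. Among the 10 highest, a peak at 10q25.2 scored 3100 and had no peak in any H3122 list.

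By chromosome, the H1819 list leaned to chromosomes 18, 4 and 13 and the H2087 list to 16, 17 and 19. Chromosome 18 had 285 H1819 and 197 H2087 peaks, which is 2.11% and 1.36% of the lists, a ratio of 1.55 (1.29 to 1.85). Chromosome 4 had 791 and 616 peaks (ratio 1.37, 1.24 to 1.52), and chromosome 13 had 373 and 293 (1.36, 1.17 to 1.59). At the other end, chromosome 16 had 261 H1819 and 532 H2087 peaks, a ratio of 0.525 (0.454 to 0.608). Chromosome 17 had 479 and 740 (0.693, 0.619 to 0.776) and chromosome 19 had 475 and 683 (0.745, 0.664 to 0.835). Chromosome Y had the lowest ratio, 0.357, but it rests on 1 peak against 3. Of the 22 autosomes, 7 had an interval above 1 and 8 had one below 1. Chromosome 14, which holds the NKX2-1 gene, had 493 and 504 peaks, with a ratio of 1.05 (0.927 to 1.18).

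**Figure D3:**
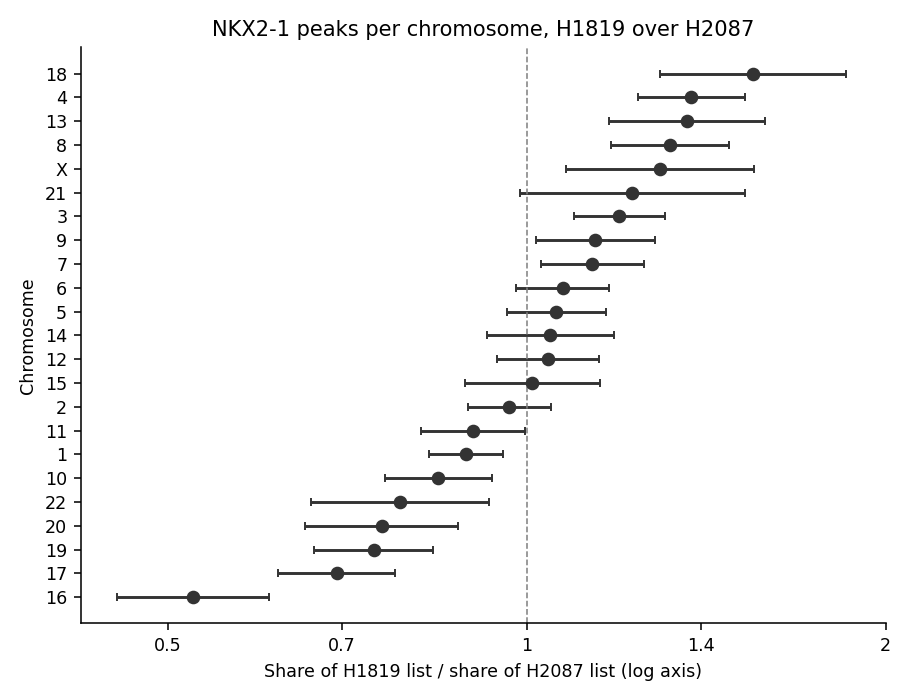
Ratio of the share of the H1819 list to the share of the H2087 list on each chromosome except Y (x axis, log scale), with 95% intervals from the peak counts; the dashed line marks equal shares. Chromosome 18 stands highest at 1.55 and chromosome 16 lowest at 0.525.

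The lean could differ between the arms of a chromosome. The highest ratios were those of 9p, with 210 H1819 and 112 H2087 peaks (2.01, 1.60 to 2.52), 18q with 196 and 114 (1.84, 1.46 to 2.32), and 8p with 176 and 117 (1.61, 1.28 to 2.03). The other arm of chromosome 9 had a ratio of 0.915 (0.797 to 1.05) and that of chromosome 18 one of 1.15 (0.852 to 1.55), while 8q leaned to H1819 as well (1.23, 1.08 to 1.41). On chromosome 16 both arms were low, with 132 and 275 peaks on 16p (0.514, 0.418 to 0.632) and 129 and 257 on 16q (0.537, 0.436 to 0.663). The short arm of chromosome 10 had 144 and 235 peaks (0.656, 0.534 to 0.806), and its long arm a ratio of 0.925 (0.819 to 1.05). The arms were examined after the data were seen. Copy number, which can change an arm as a whole, was not measured and cannot be told apart from binding here.

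The shared fraction followed the other line's density. H1819 peaks were shared in 37.9% of cases on chromosome 19, 32.99% on 17 and 32.2% on 16, where H2087 peaks were dense, against 14.8% on chromosome 8, 14.4% on 18 and 11.8% on X. Across the 22 autosomes the H1819 share had a Spearman's rho of 0.855 with the number of H2087 peaks per Mb, and the H2087 share one of 0.404 with H1819 peaks per Mb. The ratio of the lists had a rho of -0.248 with the share of a chromosome in unstained (light) bands. These are descriptions over chromosomes measured in the same 2 libraries.

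At the scale of 1 Mb, 2625 windows held a peak of either line: 1956 held peaks of both, 530 of H1819 alone and 139 of H2087 alone. Over these windows rho between the counts was 0.509, again as a description. The largest H1819 excess was at 6q23.2 (133 to 134 Mb), with 24 H1819 and 3 H2087 peaks, none of them shared. It was followed by 13q22.1 (19 and 0), 14q23.2 (24 and 6), 4q35.1 (21 and 3) and 7p21.1 (24 and 9). The largest H2087 excess was at 11q13.1 (65 to 66 Mb), with 9 H1819 and 41 H2087 peaks. The next were 17p13.1 (16 and 45), 19q13.32 (3 and 30), 3q25.1 (4 and 28) and 19q13.33 (4 and 28). In the H1819 windows H3122 list 2 had 17 to 49 peaks and in the H2087 windows 37 to 47. With 48061 assembled peaks in list 2, peaks of it in a window of 1 Mb are common. These counts were not compared with those of other windows.

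Runs of specific peaks, in stretches between neighbouring peaks of the other line, showed where one list had many peaks and the other had none called. This comparison was added with the data in view. The H1819 list had 132 stretches with at least 10 of its peaks and no H2087 peak, and these held 13.7% of the list. H2087 had 107 such stretches, with 9.11% of its list. The H1819 stretch with most peaks held 34 of them in 5.93 Mb at 11q14.3, where H3122 list 2 had 42 peaks. A stretch of 14.2 Mb around 13q31.2 held 31 H1819 peaks with scores up to 3100, while H3122 list 2 had 230 peaks and the FOXA1 list 308 in it. At 13q22.1 26 H1819 peaks lay in 3.26 Mb, against 79 peaks of H3122 list 2. At 18q22.1 22 H1819 peaks were spread over 11.9 Mb, with 74 of H3122 list 2. By the rule that set them, these 4 stretches held no H2087 peak. H3122 list 2 has 48061 assembled peaks, so some are likely in any stretch of several Mb. Its density there was not compared with its mean over the genome. A different case was 1q32.2, where 20 H1819 peaks in 1.19 Mb stood beside 2 peaks of H3122 list 2.

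Over all stretches with at least 10 peaks, the median length was 2.48 Mb for H1819 peaks (quartiles 1.26 to 4.55) and 0.814 Mb for H2087 peaks (0.493 to 1.35). The longest measured 32.9 Mb and 5.77 Mb. In H2087 the stretch with most peaks held 31 in 0.589 Mb at 19q13.33, where H3122 list 2 had 36. Stretches with 19 peaks each lay at 5q33.1 (0.823 Mb), 17q24.3 (1.38 Mb) and 16p13.3 (1.26 Mb), with 18, 40 and 40 peaks of H3122 list 2. At 11q13.1 16 H2087 peaks filled 0.151 Mb, and H3122 list 2 had 4 there. The longest of these H2087 stretches, at 6q27, held 18 peaks in 5.77 Mb. Copy number and read depth in these stretches were not measured.

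Peaks also gathered in local clusters, defined as 4 or more peaks of one list with gaps of at most 0.0125 Mb. H1819 had 207 clusters with 991 peaks (7.35% of the list) and H2087 had 380 with 1856 peaks (12.9%). Clustered peaks were no more shared than others. In H1819 21.1% (18.7 to 23.7) of clustered and 22.97% (22.2 to 23.7) of other peaks were shared. In H2087 it was 15.4% (13.8 to 17.1) against 21.8% (21.1 to 22.5), and those intervals did not overlap. The other line had no peak in 93 of the H1819 clusters (44.9%) and in 186 of the H2087 clusters (48.9%). A cluster of one line overlapped a cluster of the other in 23 cases for H1819 and 22 for H2087. H3122 list 2 had no peak in 19 H1819 and 14 H2087 clusters.

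The 5 H1819 clusters with most peaks held 9 to 11 each. The first, chr11:57287552-57325103 at 11q12.1, had 11 peaks in 37.6 kb, of which 2 were shared, and H3122 list 2 had 9 peaks and FOXA1 7 there. The second, chr10:49241691-49278746 at 10q11.22, also had 11 peaks, with scores from 67.3 to 999.7. None of them met an H2087 peak, and 3 of them at one edge met an H3122 list 2 peak. Its highest peak, 1079 bp wide, had no H3122 peak of NKX2-1 or FOXA1. At 1p36.22 (chr1:12433601-12469642) 3 of 11 peaks were shared. At 5q23.2 (chr5:124013669-124048233), the band of ZNF608, a zinc finger gene, 9 H1819 peaks lay where H2087 had none and H3122 list 2 had 8. At 6p22.3 (chr6:16839899-16876893) 9 H1819 peaks, 3 H2087 peaks, 10 of H3122 list 2 and 9 of FOXA1 lay together.

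The 5 H2087 clusters with most peaks held 11 to 14. The first, chr11:65412281-65442369 at 11q13.1, had 14 peaks in 30.1 kb with a median score of 113 and a highest of 886. H1819 had no peak inside it, H3122 list 2 had 2 and FOXA1 none. The second lay in the same band at chr11:64941930-65001615, with 13 peaks of which 4 were shared, 7 peaks of H3122 list 2 and 4 of FOXA1. The pair lie in one band but differ in how many peaks the other lines had there. At 17q23.1 (chr17:55257664-55285969) 3 of 11 H2087 peaks were shared, among them one of 1963 bp that scored 3100, and H3122 list 2 had 9 peaks. At 10q23.33 (chr10:95203894-95232613) 2 of 11 were shared. At 8q24.21 (chr8:128932476-128993641) 11 H2087 peaks met no H1819 peak, while H3122 list 2 had 12 peaks and FOXA1 8.

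**Figure D4:**
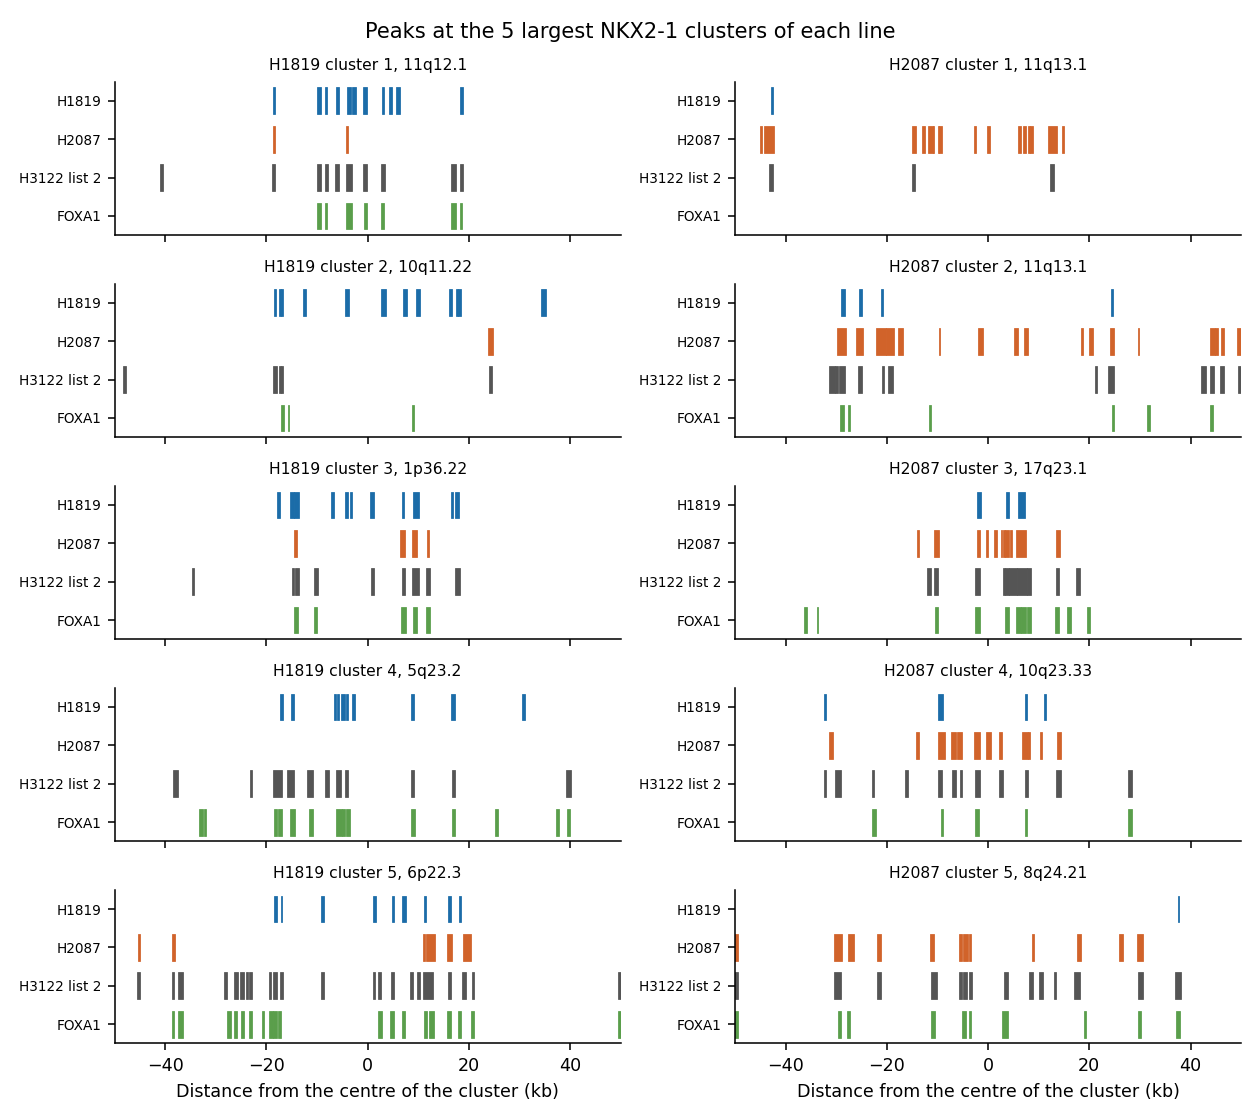
Peaks of H1819, H2087, H3122 NKX2-1 list 2 and H3122 FOXA1 (rows of each panel) around the 5 clusters with most peaks of H1819 (left) and of H2087 (right); the x axis is the distance from the centre of the cluster in kb, and each bar spans a peak. H2087 has no peak inside the H1819 clusters at 10q11.22 and 5q23.2, and H1819 has none inside the H2087 clusters at 11q13.1 (the first) and 8q24.21.

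Lung genes were examined by the cytogenetic band that holds them, since gene positions of build hg18 were not used here. A band is several Mb long on average and holds many genes, so a count belongs to the band and not to the gene named. A gene near the edge of a band may also fall in its neighbour. The list had 55 genes in 48 bands. Both lines had peaks in 47 of them, and 46 held a shared peak. In these bands 281 of 1176 H1819 peaks (23.9%, 21.5 to 26.4) and 278 of 1434 H2087 peaks (19.4%, 17.4 to 21.5) were shared, beside 22.8% and 21.0% over the whole lists. The ratio of list shares had an interval above 1 in 7 bands and below 1 in 12, and H2087 had no peak in 1 more. Over all 798 bands with a peak of either line such intervals lay above 1 in 12.7% and below 1 in 11.7%. Over the 467 bands off the list with at least 20 peaks of the lines together they did so in 12.6% and 15.2%.

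The NKX2-1 band 14q13.3 (chr14:35600001-36900000), which also holds SFTA3, a lung gene next to it, had 15 H1819 and 11 H2087 peaks, with a ratio of 1.46 (0.671 to 3.18). Its peaks were dense in both lines, at 2.64 and 1.81 times the mean density of the list. Per the labels the lines carry extra copies of this gene, which cannot be told apart from binding here. In each line 2 peaks were shared (2 of 15 and 2 of 11, beside 22.8% and 21.0% over the lists), at chr14:35859484-35860040 (score 233 in H1819) and chr14:36052636-36053043 (score 81.1). The highest H1819 peak, chr14:36309735-36310800 with a score of 1422, was 110 kb from the nearest H2087 peak, and had a peak in both H3122 NKX2-1 lists and in FOXA1. The highest H2087 peak, chr14:36600645-36601862 with a score of 724, was 107 kb from the nearest H1819 peak and had a peak in H3122 list 2 and FOXA1. The neighbouring band 14q21.1, that of FOXA1, had 15 and 7 peaks (2.29, 0.936 to 5.63).

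The bands of surfactant and secretory genes are given first. That of ABCA3 (16p13.3), the lipid transporter of lamellar bodies, had 16 H1819 and 86 H2087 peaks, a ratio of 0.199 (0.117 to 0.340). That of NAPSA (19q13.33), an aspartic protease that processes surfactant protein B, had 13 and 54 (0.258, 0.141 to 0.472). The band of SFTPA1, SFTPA2 and SFTPD (10q22.3), collectins of the airspace, had 19 and 39 (0.522, 0.302 to 0.902). The highest H2087 peak there, chr10:77543450-77546172 with a score of 2734, was shared. The secretoglobin band of SCGB3A1 (5q35.3) had 26 and 47 peaks (0.592, 0.367 to 0.956) and that of the mucin MUC1 (1q22) had 25 and 48 (0.558, 0.344 to 0.904). The trefoil factors TFF1 and TFF3, secreted by mucous cells, lie at 21q22.3, with 24 and 49 (0.524, 0.322 to 0.854). Other such bands had intervals that included 1: SFTPB at 2p11.2 had 26 and 31 peaks, SFTPC at 8p21.3 had 20 and 22, LAMP3 at 3q27.1 had 19 and 18, LPCAT1 at 5p15.33 had 10 and 11, and SCGB3A2 at 5q32 had 14 and 25. The club cell secretoglobin band of SCGB1A1 (11q12.3) had 20 and 28, with 10 H1819 and 11 H2087 peaks shared, beside 22.8% and 21.0% over the lists. The band of the phosphate transporter SLC34A2 (4p15.2), another type II cell gene, leaned to H1819, with 39 and 19 peaks and a ratio of 2.20 (1.27 to 3.80). Where the band's chromosome leaned the same way, as 1, 4, 10, 16 and 19 did, the lean of the band and that of the chromosome cannot be told apart. The same limit applies to leaning bands named below. Of their chromosomes, 3, 7, 8 and 13 leaned to H1819, and 1, 16, 17 and 20 leaned to H2087.

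Listed bands of transcription factors leaned to H1819, to H2087 or to neither. Leans also occurred in bands off the list with at least 20 peaks, above 1 in 12.6% and below 1 in 15.2%. The band of KLF5 (13q22.1), a Krüppel-like factor of epithelia, held 25 H1819 peaks and no H2087 peak, although H3122 list 2 had 71 and FOXA1 84 there. The band of SOX2 (3q26.33), a factor of airway progenitors, had 15 and 5 peaks (3.21, 1.17 to 8.84), and that of the aryl hydrocarbon receptor AHR (7p21.1) had 43 and 19 (2.42, 1.41 to 4.16). For ZNF608 (5q23.2) the counts were 40 and 14 (3.06, 1.67 to 5.62). The H1819 peaks there reached a score of 1478 at chr5:124047412-124048233. The lean was the opposite at FOXA2 (20p11.21), the partner of FOXA1 in endoderm, with 10 and 29 (0.369, 0.180 to 0.757). It was also so at HNF4A (20q13.12), a factor of liver and gut epithelium, with 28 and 62 (0.484, 0.310 to 0.755), and at ELF3 (1q32.1), an ETS factor of epithelia, with 47 and 83 (0.606, 0.424 to 0.866). GATA6 at 18q11.2 had 30 and 35 peaks, GRHL2 at 8q22.3 had 32 and 24, SOX9 at 17q24.3 had 13 and 19, and CEBPA at 19q13.11 had 15 and 13, all with intervals that included 1.

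Among genes of cell contact, signalling and growth, the CDH1 band (16q22.1), that of E-cadherin, had 20 and 64 peaks (0.335, 0.203 to 0.553). Bands of other listed genes of cell contact had intervals that included 1. OCLN (5q13.2) had 31 and 43 peaks (0.772, 0.487 to 1.22) and CLDN18 (3q22.3) had 12 and 20 (0.642, 0.314 to 1.31). CLDN1 (3q28) had 31 and 23 (1.44, 0.842 to 2.47). The band of the receptor tyrosine kinase ERBB2 (17q12) had 18 and 52 (0.371, 0.217 to 0.633), and that of the receptor ROR1 (1p31.3) had 34 and 60 (0.607, 0.399 to 0.924). Among inhibitors of the MAP kinase pathway, the band listed for DUSP4 (8p12), a phosphatase of these kinases, had 47 and 17 (2.96, 1.70 to 5.15). In hg18 this gene may instead fall in the neighbouring band 8p21.1, which had 21 and 11 (2.04, 0.986 to 4.24), an interval that included 1. The band of SPRY2 (13q31.1), a Sprouty protein, leaned to H1819 with 27 and 8 (3.61, 1.64 to 7.95). That of SPRED1 (15q14), a further inhibitor, had 31 and 24 (1.38, 0.812 to 2.36). None of the peaks in the SPRY2 band was shared, beside 22.8% of H1819 and 21.0% of H2087 peaks over the lists. Bands off the list could also lack shared peaks, as 8q12.1 did with 29 H1819 and 12 H2087 peaks. DUSP6 (12q21.33) had 18 in each line, with 5 shared. GPRC5A (12p13.1), a retinoic acid-induced receptor, had 40 and 19 (2.25, 1.31 to 3.89), and its band was the one most densely bound in H1819, at 4.15 times the mean of the list. In H2087 the densest of the 48 was the MUC1 band, at 6.83 times the mean. The receptor bands of EGFR (7p11.2; 17 and 16 peaks) and MET (7q31.2; 28 and 26) had intervals that included 1. The ERBB3 band (12q13.2) stood out for sharing: 12 of its 15 H1819 peaks and 12 of its 27 H2087 peaks were shared, beside 22.8% and 21.0% over the lists.

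**Figure D5:**
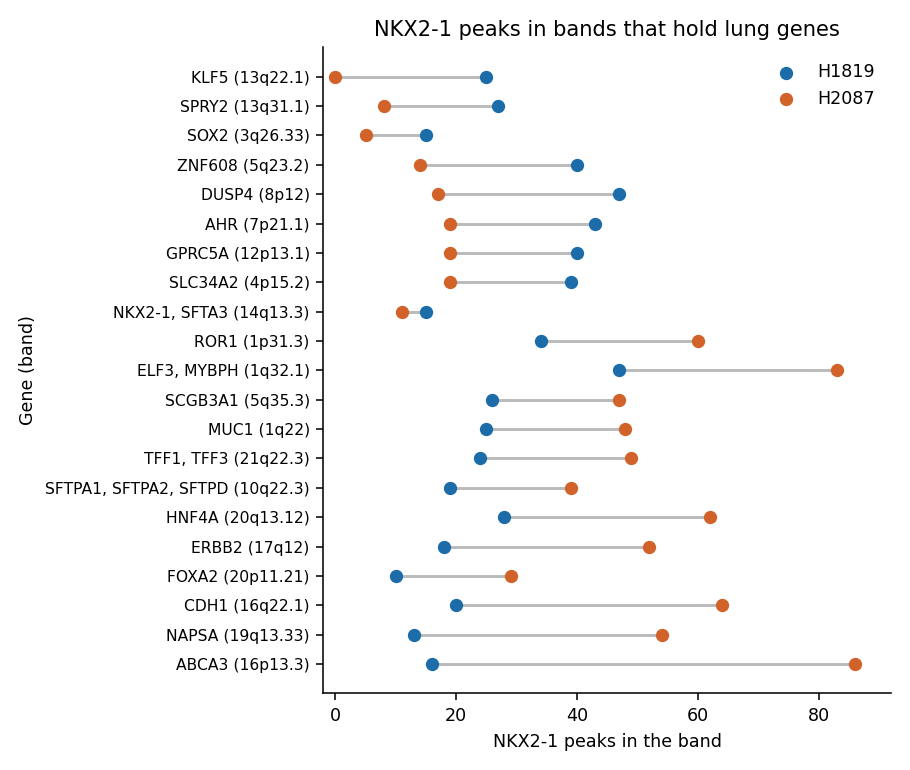
Number of NKX2-1 peaks of H1819 and H2087 (x axis) in the bands, named by their listed genes (y axis), whose ratio of list shares had an interval that left out 1, with the KLF5 band, where H2087 had no peak, and the NKX2-1 band, whose interval included 1. Bands are ordered by ratio, from 25 against 0 peaks at KLF5 to 16 against 86 at ABCA3.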

How the data were processed

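NKX2-1 peak lists of H1819 and H2087 were compared, with the 3 H3122 lists as a separate readout. The submitters' processing notes name Bowtie, the genome build hg18 and the peak caller MACS 1.4.0. The sources used here do not give calling thresholds, the input behind each list or read depth. Each deposited list, tied to 1 library per the labels, gave positions and a score. The authors deposited this score without a stated scale, and it was used only to rank peaks within a list. H1819 and H2087 have no replicates, so no test was run: shares have Wilson 95% intervals, ratios of list shares have log-normal intervals of the ratio of proportions, and both cover counting error only. Peaks on unplaced sequence (3 and 4) were left out of overlaps.

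Bands came from circlize 0.4.16 and chromosome lengths from GenomeInfoDb 1.38.1 (R 4.3.3). Peaks were placed, and distances measured, by midpoint. The build's gene annotation and genome sequence were not used here, so each gene was taken as its cytogenetic band, and peak sequences and motifs were not examined. A RefSeq table of another build served only to check that all 55 genes lie on their band's chromosome, and 55 did. Overlaps and counts were computed in Python 3.11.15 (pandas 2.3.3, numpy 2.4.6, scipy 1.17.1) and drawn with matplotlib 3.10.9. The overlap code was tested on simulated data.

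The regions named were the 5 shared ones with the highest mean rank of score, the 5 highest-scoring specific peaks per line, the 5 clusters with most peaks, the 5 windows of 1 Mb with the largest excess each way, and the chromosomes with the 3 highest and 3 lowest ratios. Chromosome Y fell among the lowest, and 19 was named beside it. All bands of the gene list were counted. Members, gene list and rules were chosen with earlier results of these data known. Arms, stretches, all bands, shares of the H3122 lists and the FOXA1 comparison within score quartiles were chosen after the data were seen, as were single peaks or clusters named outside these rules. Alternatives changed the score threshold, overlap rule, list length, peak width, cluster gap, window and H3122 list.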

Additional observations from a re-analysis of the deposited data

Results flagged for a closer look

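Sequence not placed on a chromosome was used in no comparison. The H2087 list had 4 NKX2-1 peaks there, above the 3 that a count of 0 allows, and the H1819 list had 3.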

How the results depend on the processing

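No paired analysis was possible because each line has 1 library and no test was run. Of 70 alternative values over 34 results, 32 moved by less than their counting interval (counts by less than 1.5 times) and 38 moved more; the causes were not tested. At scores of at least 100 the shared part was 20.4% of H1819 and 17.2% of H2087 peaks, with a reciprocal overlap of 50% it was 14.9% and 13.9%, with midpoints within 250 bp 20.01% and 18.7%, with gaps of up to 1 kb 25.1% and 24.5%, and with the 5000 highest-scoring peaks of each list 15.1% and 14.9%. With peaks cut to 200 bp, H2087 widths were 705 bp (shared) and 565 bp (specific) and scores 224 and 136.7. With 5000 peaks per list the ratio was 0.483 on chromosome 17 and 0.612 on 19. Clusters numbered 73 in H1819 and 170 in H2087 at a gap of 5 kb, 418 and 648 at 25 kb, and 69 and 144 at scores of at least 100. At that score 15.3% of clustered H1819 peaks were shared and 58.0% of its clusters held no H2087 peak. At 25 kb 17.7% of clustered H2087 peaks were shared and 40.4% of its clusters held no H1819 peak. In windows of 500 kb the density in the window of largest excess was 10.1 times the mean in H1819 and 13.2 in H2087, against 5.48 and 8.75 at 1 Mb. With H3122 list 1 alone, 30.4% of shared and 9.02% of specific H1819 peaks and 31.3% and 10.8% in H2087 met an H3122 NKX2-1 peak. At scores of at least 100 specific peaks met NKX2-1 in 39.8% (H1819) and 59.3% (H2087) and FOXA1 in 24.2% and 26.7%. Score quartiles raised the FOXA1 difference to 17.1 and 9.15 points, and for H2087 turned its sign. The planned count of peaks within 10 kb of genes was not run, since gene positions of the build were not used. Unknown depth limits every count of peaks in one line alone.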
